A study of Mus musculus with 23 samples.

Results

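Contractile genes of smooth muscle were followed in RNA of whole mouse hearts. The 10 genes, of 55487 in the deposited expression table, were taken by symbol: Acta2, Actg2, Myh11, Myl9, Mylk, Tagln, Cnn1, Smtn, Lmod1 and Myocd. They were chosen by function as a set, with their measured treatment differences in both models (log2 differences and calls) already known, so those differences, and the calls of the fit across all genes, are given as a description and support nothing. The tests below bear on sex and on how the genes varied among libraries of a group.

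The study compared 2 mouse models of heart failure in which the ejection fraction is preserved, each with its own controls and its own sequencing run. In run 2, Leprdb/db mice on C57BL/6J, which lack a working leptin receptor, were given aldosterone by minipump (0.3 µg/h over 4 weeks, started at 12 weeks of age), and are called db/db+Aldo (n = 8, 4 female). Their controls were wild-type C57BL/6J mice on chow with pumps holding saline and ethanol only (sham, n = 7, 4 female), so genotype and hormone differ together and cannot be told apart. In run 1, wild-type C57BL/6J mice of 10 weeks received a diet with 60 kcal% fat and L-NAME, an inhibitor of nitric oxide synthase, at 0.5 g/L in drinking water over 15 weeks, and are called HFD+L-NAME (n = 4, 2 female). Age-matched mice on another chow were the controls (chow, n = 4, 2 female). Levels were not compared across runs.

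In smooth muscle cells, which wrap the coronary arteries of the heart, actin filaments built partly from Acta2 slide along a myosin whose heavy chain is Myh11. Contraction starts when myosin light chain kinase, the product of Mylk, phosphorylates the light chain Myl9. Myocardin, the product of Myocd, is a coactivator of serum response factor (SRF), which binds CArG boxes in front of many of these genes, and it is also made in cardiomyocytes. Acta2 is also switched on in myofibroblasts and is present in some pericytes, so it is less restricted to smooth muscle than Myh11.

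Promoters are shown for Acta2 and for Myl9, the member with the highest Pearson's r with Acta2 across the 8 db/db+Aldo hearts. RefSeq promoter sequences on GRCm38.p6, running from 250 bases before the start to 50 after it, were matched for 6 of the 10 genes (Acta2, Myl9, Cnn1, Smtn, Mylk and Lmod1). Each is printed 5′ to 3′ on the strand of the gene, with CArG boxes in capitals. The strict box has a core of A and T between CC and GG, and the looser form allows 1 core base to be G or C. Both forms read the same way on either strand. The Acta2 window is chr19:34255324-34255623 on the minus strand and the Myl9 window is chr2:156775214-156775513 on the plus strand.
Acta2: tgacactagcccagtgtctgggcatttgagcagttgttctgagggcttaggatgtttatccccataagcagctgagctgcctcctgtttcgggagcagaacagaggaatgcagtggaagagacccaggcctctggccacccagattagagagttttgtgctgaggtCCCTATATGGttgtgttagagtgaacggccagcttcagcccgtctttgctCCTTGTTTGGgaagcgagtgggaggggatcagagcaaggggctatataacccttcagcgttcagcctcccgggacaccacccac
Myl9: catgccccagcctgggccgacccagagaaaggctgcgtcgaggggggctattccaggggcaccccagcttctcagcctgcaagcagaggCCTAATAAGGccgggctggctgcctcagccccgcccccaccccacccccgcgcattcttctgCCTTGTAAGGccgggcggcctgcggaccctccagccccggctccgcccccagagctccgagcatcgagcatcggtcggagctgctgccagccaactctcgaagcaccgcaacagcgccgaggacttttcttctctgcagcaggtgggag
The Acta2 window held 2 boxes of the looser form, at 84 to 75 and at 34 to 25 bases upstream of the start. Distances here are from the start used by the promoter collection. For Acta2 that start lies inside the gene as GENCODE places it, which reaches 34255590 on the minus strand. Both Acta2 boxes therefore lie within that annotated gene, and their distance from its 5′ end is another. The Myl9 window held 1 strict box at 161 to 152 bases upstream and 1 looser box at 99 to 90. No box of either form stood in the windows of Cnn1, Smtn, Mylk or Lmod1. The Smtn window (chr11:3539243-3539542) and the Mylk window (chr16:34784700-34784999) lie wholly inside the annotated genes. GENCODE places the 5′ ends of those genes at 3540612 and 34745210, so the sequence before them was not searched. Of all 32851 promoter windows in the same collection, 1.63% held a strict box and 9.98% held a box of either form. A match is a description of the letters and not evidence of binding.

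Libraries held 21258779 to 25692431 counts. Chi-square distances between replicates were at least 7.61 per gene, so no library was a copy of another. Of the 23 sex labels, 22 matched the sex-linked genes. The exception was sham replicate 1, labelled male, which held 1430 counts of Xist and 593 of Ddx3y. Lepr counts overlapped between groups (15.5 to 60.8 in db/db+Aldo and 21.5 to 92.8 in sham), and a count over the whole gene does not check the db allele. Mitochondrial genes took 41.2 to 52.8% of counts in db/db+Aldo and 30.01 to 42.7% in sham, against 45.3 to 53.1% in HFD+L-NAME and 47.0 to 50.2% in chow. As these are bulk samples, fewer cells of a type and less RNA per cell cannot be told apart.

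The actin gene Acta2 (chromosome 19, 34241090 to 34255590, minus strand, GRCm38) stood apart from the other contractile genes in db/db+Aldo hearts. Its normalised read counts were 1310, 880, 711, 1336, 2328, 882, 1126 and 995 in db/db+Aldo replicates 1 to 8. In sham replicates 1 to 7 they were 3677, 3996, 4975, 3237, 3432, 3956 and 3696. Every db/db+Aldo library lay below every sham library, although replicate 5 came closer to them than the other treated libraries did. The means were 1196 ± 506 (SD, n = 8) and 3853 ± 563 (SD, n = 7), so sham hearts held 3.22 times as much. On the log2(normalised count + 1) scale, with sex as a covariate in limma, the difference was −1.77 ± 0.18 (SE), the 17th lowest of 14121 genes tested. Across all genes tested the median difference was −0.02.

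The same gene showed no such step in the diet model. Acta2 counts were 2291, 3299, 2747 and 2775 in HFD+L-NAME replicates 1 to 4 and 2329, 3545, 3589 and 2102 in chow replicates 1 to 4. The treated values all lay inside the range of the controls. The log2 difference was −0.03 ± 0.17 (SE, n = 4 and 4).

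The enteric smooth muscle actin Actg2 (chromosome 6, 83512905 to 83536265, minus strand) was a rare transcript in these hearts. It had 5.29 to 32.04 normalised counts in db/db+Aldo, with a median of 16.2, and 7.62 to 23.9 in sham, with a median of 14.2. The groups overlapped, and the log2 difference of 0.24 ± 0.32 (SE) was smaller than its error and of the other sign than that of Acta2. With HFD+L-NAME the counts were 13.04, 13.1, 6.92 and 7.73 against 18.3, 22.8, 13.7 and 8.77 in chow, a log2 difference of −0.57 ± 0.30 (SE) that was not called. Actin genes have closely similar coding sequences, and how reads matching several genes were counted is not stated, so actin counts are uncertain to that extent. The cardiac actin Actc1 differed by 0.04 ± 0.10 (SE) on the log2 scale in the db/db model. The skeletal actin Acta1 differed by −1.11 ± 0.26 there and was called lower. The cytoplasmic actins Actg1, at −0.28 ± 0.11, and Actb, at −0.19 ± 0.11, were not called.

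**Figure D1:**
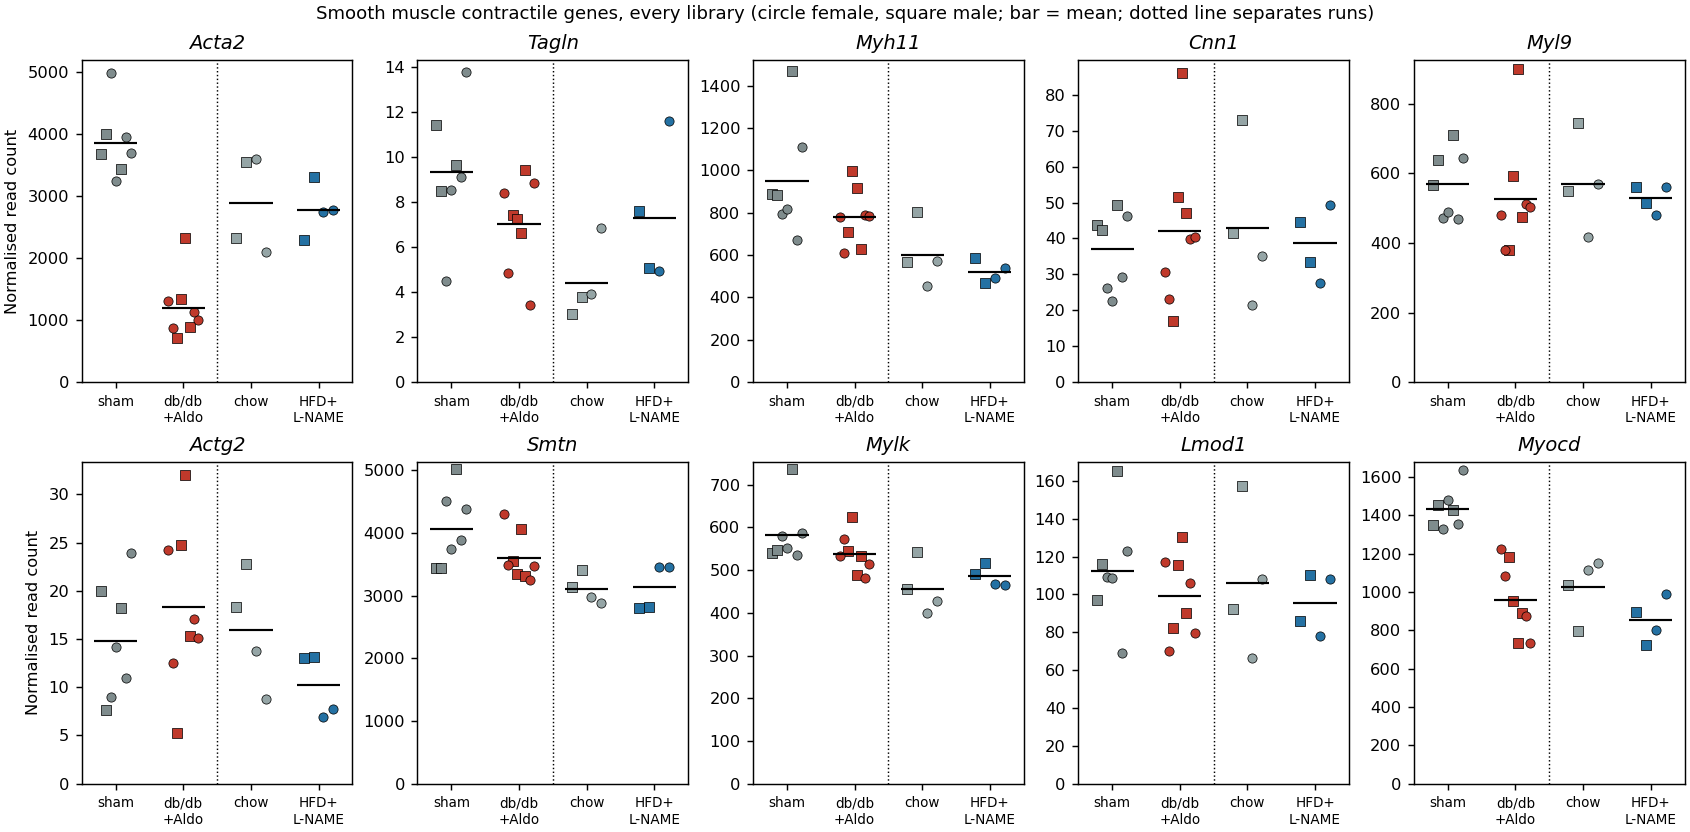
Normalised read counts (y axis, linear and starting at 0) of the 10 smooth muscle contractile genes in every library of sham (n = 7), db/db+Aldo (n = 8), chow (n = 4) and HFD+L-NAME (n = 4) hearts. Circles are females, squares males, bars means, and the dotted line separates sequencing runs, across which levels are not comparable. Acta2 and Myocd are the panels in which all db/db+Aldo libraries lie below all sham libraries.

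The myosin genes overlapped between the groups of the db/db model. Myh11, the smooth muscle myosin heavy chain (chromosome 16, 14194535 to 14291372, minus strand), ran from 610 to 999 in db/db+Aldo, with a median of 783, and from 672 to 1470 in sham, with a median of 882. The lowest sham library, replicate 6, lay within the treated range, and the log2 difference was −0.28 ± 0.13 (SE), not called. Myl9, the regulatory light chain (chromosome 2, 156775420 to 156781658, plus strand), ran from 379 to 899 with a median of 492 in db/db+Aldo and from 470 to 709 with a median of 567 in sham. Both its lowest and its highest value were in db/db+Aldo hearts, and its log2 difference was −0.16 ± 0.14 (SE). Mylk, the kinase that acts on this chain (chromosome 16, 34745210 to 35002420, plus strand), ran from 483 to 624.5 with a median of 534 in db/db+Aldo and from 535 to 737 with a median of 552 in sham. Its groups overlapped as well, with a log2 difference of −0.12 ± 0.08 (SE).

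The myosin genes overlapped between the groups of the diet model too. Myh11 counts were 588, 467, 491 and 539 in HFD+L-NAME and 566, 804, 455 and 572 in chow, a log2 difference of −0.18 ± 0.13 (SE). Myl9 counts were 562, 514, 480 and 562 against 549, 745, 416 and 568.2, a log2 difference of −0.08 ± 0.13 (SE). Chow replicate 2 was the highest library for Myh11 and for Myl9 in this model. Mylk, at 492, 516, 468 and 465.9 against 457, 543, 399 and 427, differed by 0.10 ± 0.08 (SE).

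The genes of proteins that bind smooth muscle actin overlapped between the groups of the db/db model. Smtn, which encodes smoothelin, a protein of contractile smooth muscle (chromosome 11, 3517523 to 3540612, minus strand), ran from 3251 to 4307 with a median of 3481 in db/db+Aldo and from 3446 to 5026 with a median of 3888 in sham. Its log2 difference was −0.17 ± 0.09 (SE) and was not called. Cnn1, which encodes calponin, an inhibitor of the myosin ATPase (chromosome 9, 22099216 to 22109630, plus strand), ran from 16.9 to 86.2 with a median of 40.1 in db/db+Aldo and from 22.7 to 49.4 with a median of 42.3 in sham. The treated range enclosed the sham range, and the log2 difference was 0.05 ± 0.25 (SE). Lmod1, a leiomodin that starts new actin filaments (chromosome 1, 135324807 to 135368065, plus strand), ran from 70.4 to 130 with a median of 98.2 in db/db+Aldo and from 69.2 to 165 with a median of 109 in sham. Sham replicate 5 was its highest library, and the log2 difference was −0.19 ± 0.15 (SE).

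Tagln, which encodes the actin-bundling protein transgelin and is a common smooth muscle marker, was close to the limit of detection. Its counts were 3.42 to 9.39 with a median of 7.32 in db/db+Aldo and 4.50 to 13.8 with a median of 9.11 in sham, and it was not tested because its mean lay below 10. Its HFD+L-NAME counts were 7.60, 5.05, 4.95 and 11.6, against 3.05, 3.80, 3.92 and 6.82 in chow. In the GENCODE annotation of release M21, 67.9% of its exonic bases (chromosome 9, 45929619 to 45936058, minus strand) are also exonic in Gm48529 or Pcsk7, and whether strand was used in counting is not stated. The part of this overlap in its low count was not tested. Exons of other genes cover 16.3% of the exonic bases of Smtn and 6.85% of those of Mylk, and none of those of the other 7 genes.

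The actin-binding genes overlapped between groups in the diet model as well. Smtn differed by 0.01 ± 0.08 (SE) on the log2 scale, Cnn1 by −0.05 ± 0.29 and Lmod1 by −0.10 ± 0.21. Cnn1 ran from 27.7 to 49.3 in HFD+L-NAME and from 21.5 to 73.1 in chow.

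Myocd, the coactivator (chromosome 11, 65176561 to 65269989, minus strand), was the other member with separate groups in the db/db model. Its counts were 1224, 1083, 1180, 954, 734, 891, 874 and 735 in db/db+Aldo replicates 1 to 8. In sham replicates 1 to 7 they were 1350, 1454, 1331, 1477, 1426, 1357 and 1634. The highest treated library, replicate 1, lay just below the lowest sham library, replicate 3. The means were 959 ± 188 (SD, n = 8) and 1433 ± 105 (SD, n = 7), and the log2 difference was −0.60 ± 0.10 (SE). Replicate 5 had the lowest Myocd of all libraries in this model and the highest Acta2 of the treated ones. With HFD+L-NAME, Myocd was at 897, 724, 804 and 992 in HFD+L-NAME and 1037, 799, 1114 and 1151 in chow. Those groups overlapped, with a log2 difference of −0.26 ± 0.10 (SE) that was not called.

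Of the 10 genes, 9 reached a mean of 10 normalised counts in each model and were tested. In db/db+Aldo against sham, 2 of the 9 were called lower at an adjusted p below 0.05 (limma, Benjamini-Hochberg over all genes tested) and 0 higher, where 19.2% of all genes tested were called (9.21% lower and 9.96% higher). The called genes were Acta2 and Myocd, which were also the members whose groups did not overlap, as in 1.79% of all genes with treated libraries lower. Nothing is read from these counts, because this contrast was in view when the genes were chosen. The median difference of the 9 genes was −0.17 on the log2 scale. Myh11, Myl9, Smtn and Mylk were also called lower under each of 3 other scalings (no size factors, total counts, or the deposited values), which moved the median of all genes to between −0.27 and −0.22, and Lmod1 under the first and the last of these. Smtn was also called lower when the libraries in doubt of this run (replicates 1 and 5 of db/db+Aldo and 1 and 7 of sham) were left out. In HFD+L-NAME against chow, limma called 0 of the 9, against 2.18% of all 13801 genes tested (1.18% higher and 1.0% lower), and no member had separate groups, against 8.2% of all genes. In that contrast 1 of the 9 had an unadjusted p below 0.05, limma voom also called 0, and the median difference was −0.08. In the authors' deposited tables, 2 of the 10 genes passed an adjusted p of 0.05 in the db/db model, Acta2 with a log2 fold change of −1.69 (SE 0.22) and Myocd with −0.58 (SE 0.11). In the authors' deposited table for the diet model 0 of the 10 did, with 1 adjusted p missing. The share of all genes that passed in these deposited tables is not given here, so nothing is read from these counts either.

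**Figure D2:**
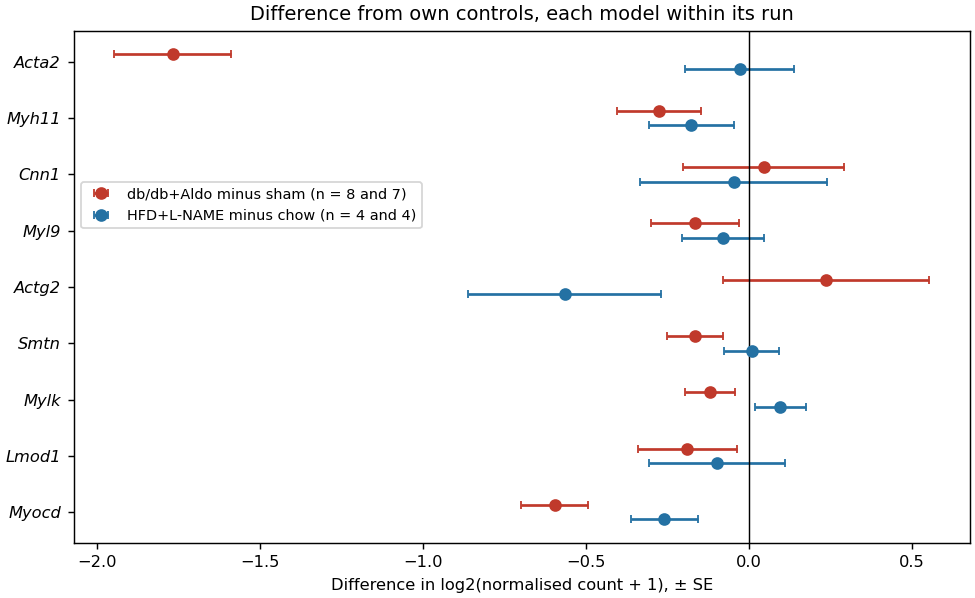
Differences in log2(normalised count + 1) with their SE (x axis) for the 9 tested contractile genes, db/db+Aldo minus sham (red, n = 8 and 7) and HFD+L-NAME minus chow (blue, n = 4 and 4), each within its run. Acta2 at −1.77 and Myocd at −0.60 are the 2 genes called lower in the db/db model, and the other 7 lie between −0.28 and 0.24.

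Acta2 was also set against the other members in the same library, which restates the differences above per library. The log2 level of Acta2 minus the mean log2 level of the 8 other tested genes was 1.96 ± 0.29 (SD, n = 8) in db/db+Aldo, from 1.68 to 2.61. In sham it was 3.59 ± 0.37 (SD, n = 7), from 3.05 to 4.14, so the groups did not overlap. The mean of those 8 genes was 8.17 ± 0.26 in db/db+Aldo and 8.31 ± 0.24 in sham, a shift smaller than either SD. The difference between Acta2 and the mean of the others was 3.48 ± 0.28 (SD, n = 4) in HFD+L-NAME hearts and 3.36 ± 0.46 (SD, n = 4) in chow hearts, and the groups overlapped.

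**Figure D3:**
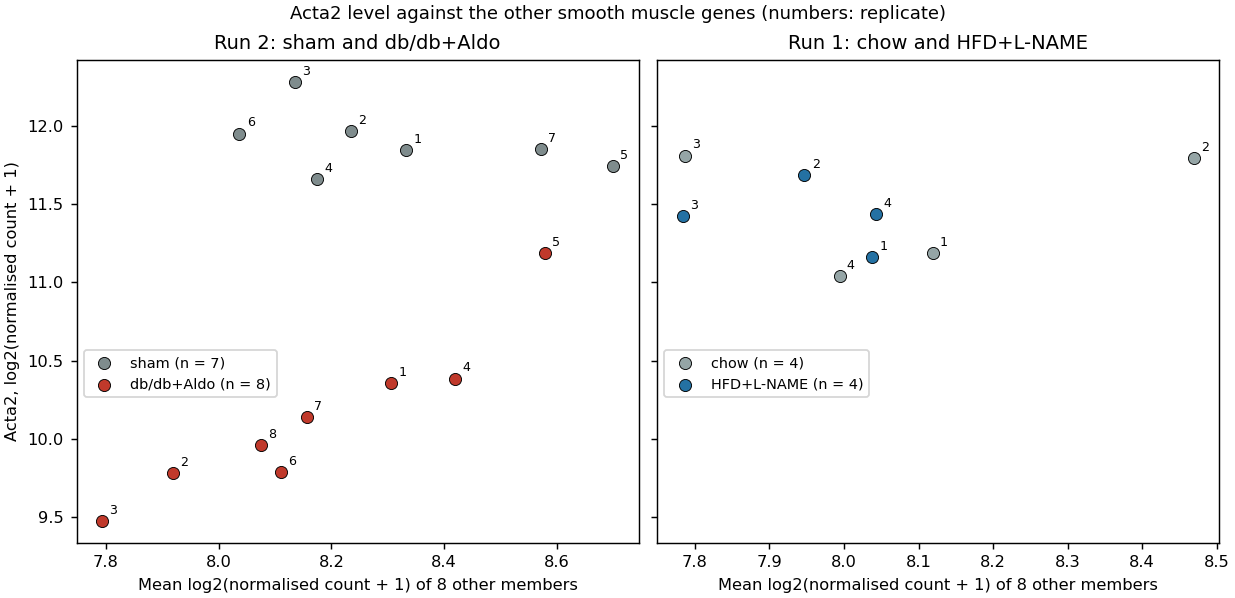
Acta2 level (y axis) against the mean level of the 8 other tested contractile genes (x axis), both as log2(normalised count + 1), 1 numbered point a library, with run 2 on the left and run 1 on the right. In run 2 the sham and db/db+Aldo libraries cover nearly the same stretch of the x axis and separate on the y axis, and db/db+Aldo libraries further along the x axis also lie higher on the y axis.

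Divided by exonic length, the order of the members changed between the groups. In sham hearts the mean normalised count per kb was 1754 for Acta2, 928 for Smtn, 490 for Myl9, 223 for Myocd, 125 for Myh11 and 51.7 for Mylk. Below these came Lmod1 at 28.5 per kb, Cnn1 at 13.6, Actg2 at 9.53 and Tagln at 4.70. The library ranges of neighbours in this order did not overlap from Acta2 down to Lmod1, and they overlapped between Lmod1 and Cnn1, Cnn1 and Actg2, and Actg2 and Tagln. In db/db+Aldo hearts Smtn came first at 822 per kb, followed by Acta2 at 545 and Myl9 at 454. The ranges of Acta2 per kb overlapped those of Smtn and of Myl9 there.

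The difference of Acta2 was present in both series of library names within run 2, which the labels do not explain. Among libraries with 4-digit names, 4 db/db+Aldo hearts spanned 882 to 2328 and 3 sham hearts 3432 to 3956, a log2 difference of −1.58. Among the others, 4 db/db+Aldo hearts spanned 711 to 1336 and 4 sham hearts 3237 to 4975, a log2 difference of −1.94. Myocd differed by −0.87 and −0.34 in the same series.

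Sex was not used to choose the genes and could be tested. In the db/db model limma called 0 of the 9 genes between females and males, where 0.0921% of all genes were called, and 0 had an unadjusted p below 0.05. The lowest adjusted p was 0.999. Myl9 came nearest in this fit, at −0.28 ± 0.14 (SE, female minus male, log2), and Cnn1 at −0.48 ± 0.25 had the largest difference. Acta2 averaged 1078 in 4 female and 1314 in 4 male db/db+Aldo hearts, and 3966 in 4 female and 3702 in 3 male sham hearts, with overlapping ranges. Its sex difference was −0.04 ± 0.18 (SE).

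In the diet model limma called 0 of 9 by sex, where 0.362% of all genes were called, and 3 had an unadjusted p below 0.05. These were Actg2 at −0.80 ± 0.30 (SE, female minus male, log2), Mylk at −0.19 ± 0.08 and Myocd at 0.23 ± 0.10, and the lowest limma adjusted p was 0.322. Whether the treatment difference depended on sex was tested as an interaction. In the db/db model 0 of the 9 were called, as were 0.0% of all genes, and 0 had an unadjusted p below 0.05. In the diet model 0 of 9 were called against 0.00725% of all genes, and 1 had an unadjusted p below 0.05. This was Smtn, which differed between treated and control hearts by 0.46 ± 0.11 (SE, log2) more in females than in males, with a limma adjusted p of 0.343. Smtn counts were 3456 and 3457 in the 2 female HFD+L-NAME hearts and 2972 and 2883 in the 2 female chow hearts. In males they were 2797 and 2815 against 3134 and 3410, so the order of the groups was opposite in the sexes. Limma voom called 0 of the 9 genes in each of these 4 contrasts. In the authors' deposited tables of females against males, 0 of the 10 genes passed in either treated group. The share of all genes that passed in those deposited tables is not given here.

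Whether Acta2 varied with the other genes was asked within each group of run 2, since groups of 4 are too small for it. Among the 8 db/db+Aldo libraries, Pearson's r with Acta2 was 0.94 for Myl9 (exact permutation p = 0.00154, adjusted over 18 pairs 0.0277), with Spearman's rho of 0.93 (exact p = 0.00223). The r for Actg2 was 0.88 (exact permutation p = 0.00729, adjusted 0.0438), with rho of 0.98 (exact p = 0.000397). Actg2 had only 5.29 to 32.04 normalised counts in these libraries, and how reads matching several actin genes were counted is not stated. The part of shared reads in this r was not tested. The r for Lmod1 was 0.84 (exact permutation p = 0.00536, adjusted 0.0438), with rho of 0.86 (exact p = 0.0107, adjusted 0.0643). These 3 of 9 pairs passed an adjusted p of 0.05. Without the 2 libraries farthest from the median of Acta2, r was 0.71 for Myl9, 0.95 for Actg2 and 0.89 for Lmod1.

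The remaining pairs in db/db+Aldo did not pass the adjustment. Cnn1 had r of 0.82 (exact permutation p = 0.0135, adjusted 0.0608, rho 0.76), which was 0.29 without the 2 farthest libraries and so rested on them. Myh11 had r of 0.73 (exact permutation p = 0.0382, adjusted 0.138, rho 0.83), and 0.87 without them. Smtn had r of 0.55, Tagln −0.05, Mylk −0.28 and Myocd −0.46. The 3 pairs that passed kept r of at least 0.81 when any one of the 8 libraries was left out. The number that passed was nevertheless 1 without replicate 1, 3 or 5, 0 without replicate 4, 7 or 8, and 0 without replicates 1 and 5 together.

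In sham libraries no pair with Acta2 passed. Among 7 sham hearts, Acta2 had a positive r with 1 of the 9 genes, the median r was −0.38 and r ran from −0.71 for Tagln to 0.11 for Smtn. Tagln, which is kept in all these pairs, had a mean below 10 counts. Its r with Acta2 in sham ran from −0.88 to 0.05 when 1 library was left out. None of the 9 passed (exact permutation, lowest unadjusted p = 0.0986), and 0 had an unadjusted p below 0.05. Without sham replicate 4, 1 of the 9 passed, and all 9 r were then negative. Among the other 9 genes, 35 of 36 pairs had a positive r in sham hearts, with a median of 0.49, against 25 of 36 and a median of 0.16 in db/db+Aldo. After adjustment over these 72 pairs, 1 passed in each group, Myh11 with Myl9 in sham (r = 0.88, exact permutation p = 0.000595, adjusted 0.025, rho 0.96) and Cnn1 with Myl9 in db/db+Aldo (r = 0.93, exact permutation p = 0.000694, adjusted 0.025, rho 0.83). The difference between the groups in these correlations was not tested. The pairs share libraries, depth and scaling. Sex and the series of library names were not removed before these correlations, so their p-values do not allow for either.

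**Figure D4:**
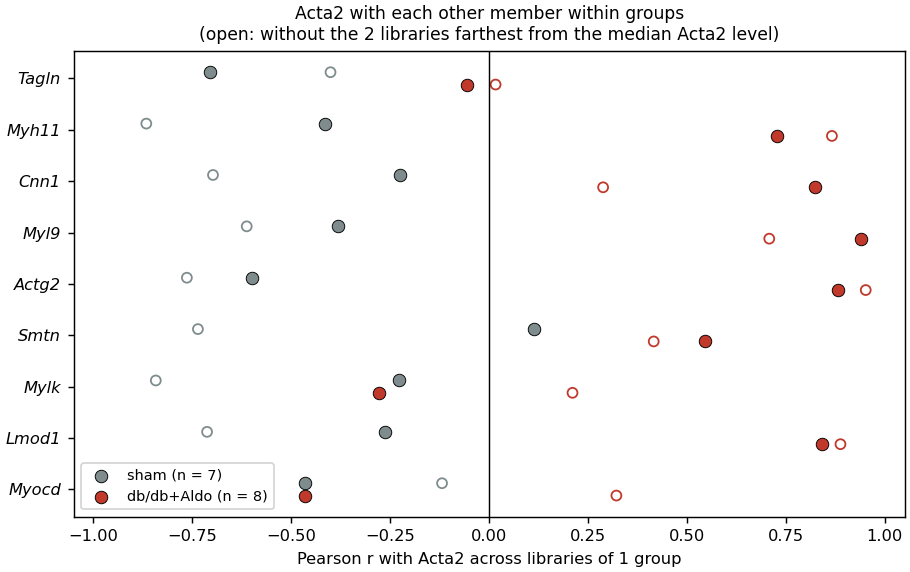
Pearson's r of Acta2 with each of the 9 other contractile genes (x axis) across 8 db/db+Aldo libraries (red) and 7 sham libraries (grey). Open circles leave out the 2 libraries farthest from the group's median of Acta2, and in db/db+Aldo r is 0.94 for Myl9, 0.88 for Actg2 and 0.84 for Lmod1.

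Other genes of the smooth muscle apparatus were called in both directions in the db/db model. Of 24 companion genes (regulators of myosin phosphatase and actin-binding or membrane proteins of smooth muscle), 23 were tested, 5 were called lower and 1 higher, where 9.21% of all genes tested were called lower and 9.96% higher. The median log2 difference of the list was −0.10. The genes called lower with the smallest p were Tpm2, a tropomyosin, at −0.80 ± 0.16 (SE), Synm, an intermediate filament protein, at −0.32 ± 0.08, and Ppp1r12b, a targeting subunit of myosin phosphatase, at −0.24 ± 0.06. Ppp1r14a, an inhibitor of that phosphatase, was called higher at 0.38 ± 0.11. The number called lower was 3 when any one of sham replicates 1, 2, 3, 5 or 7 or db/db+Aldo replicates 2, 3, 4, 6 or 8 was left out. The number called higher was 0 without sham replicate 2, 2 without db/db+Aldo replicate 5 and 3 without db/db+Aldo replicate 3. In the diet model limma called 0 of the 23, where 2.18% of all genes tested were called. There voom also called 0, 5 had an unadjusted p below 0.05, and the median was −0.04.

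Of 17 regulators of these genes (SRF, its cofactors and repressors), 16 were tested in the db/db model, with a median of −0.01. Of the 16, 1 was called lower and 0 higher, where 9.21% of all genes tested were called lower and 9.96% higher. The gene called lower was Srf itself, at −0.29 ± 0.09 (SE, log2). It had 2100 to 2985 counts in db/db+Aldo and 2557 to 3525 in sham, so its groups overlapped. The call was lost when sham replicate 2, 3 or 5 or db/db+Aldo replicate 3, 4, 6, 7 or 8 was left out, and 1 regulator was called higher without db/db+Aldo replicate 3 or 5. In the diet model limma and voom called 0 of 16, and 5 had an unadjusted p below 0.05, where limma called 2.18% of all genes tested.

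Paralogues of the members that serve other cells were called in both directions. Of 18, 16 were tested in the db/db model, with 3 called higher and 4 lower, where 19.2% of all genes tested were called in either direction. The skeletal actin Acta1 was called lower at −1.11 ± 0.26 (SE, log2), the kinase Mylk4 at −0.88 ± 0.15 and the leiomodin Lmod3 at −0.33 ± 0.08. The cardiac leiomodin Lmod2 was called higher at 0.34 ± 0.08, the smoothelin-like Smtnl2 at 0.35 ± 0.09 and the calponin Cnn3 at 0.22 ± 0.06. Without db/db+Aldo replicate 5 the number called lower was 7. In the diet model 1.18% of all genes tested were called higher. Of 17 paralogues tested there 2 were called higher, the cytoplasmic actin Actb at 0.28 ± 0.06 and the non-muscle myosin Myh9 at 0.34 ± 0.07. The number called was 1 without chow replicate 1 or 2 or HFD+L-NAME replicate 2, and 0 without chow replicate 3 or 4 or HFD+L-NAME replicate 3 or 4.

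Markers of other cells that hold Acta2 or surround it were counted beside it, to be read against the 19.2% of all genes called in this contrast. Of 12 pericyte markers, 1 was called higher (Colec11, 0.43 ± 0.10 SE) and 1 lower (Abcc9, −0.44 ± 0.11). The summed counts of the 12 were 19773 to 24359 in db/db+Aldo and 23246 to 26886 in sham, with means of 22371 and 24859. The lower sum lay largely in Abcc9, which averaged 6456 in db/db+Aldo and 8661 in sham. Without db/db+Aldo replicate 5, 4 pericyte markers were called lower. Of 12 fibroblast markers, 8 were called higher and 0 lower, with the smallest p for Dpep1 at 0.95 ± 0.12, Mfap5 at 0.65 ± 0.11 and Islr at 0.40 ± 0.08. Their summed counts were 47969 to 56511 in db/db+Aldo and 38616 to 45548 in sham, without overlap. Of 11 tested markers of activated fibroblasts, 5 were called higher, among them Lox at 1.06 ± 0.18, Ccn2 at 0.74 ± 0.13 and Tnc at 1.39 ± 0.34, and 0 lower. Their sums were 4795 to 9058 against 3187 to 5349, and 3 were called without sham replicate 2, 3 or 6 or db/db+Aldo replicate 4, 6, 7 or 8. Fibroblast marker sums were thus higher in the group in which Acta2 was lower, and their relation from heart to heart was not tested. No marker in these lists was at 0 in all libraries of the model, and the part of these cells, or of the mitochondrial share, in the Acta2 difference was not tested.

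Of 10 endothelial markers, a share near the 19.2% of all genes was called, 1 higher (Emcn, 0.36 ± 0.10 SE) and 1 lower (Tie1, −0.36 ± 0.08), with sums of 17431 to 20611 in db/db+Aldo and 17083 to 21503 in sham. Of 10 macrophage markers 3 were called higher, namely Ccr2 at 1.78 ± 0.30, Cd68 at 0.73 ± 0.14 and Lyz2 at 0.51 ± 0.12, with sums of 5363 to 7718 against 4269 to 6398. Of 10 cardiomyocyte markers 1 was called lower, Myh6 at −0.34 ± 0.10, with sums of 977760 to 1201512 against 1116615 to 1434313. Single calls were made among epicardial markers (Msln, 0.84 ± 0.15) and atrial markers (Nppa, 0.98 ± 0.32), and Acta1 and Ckm (−0.32 ± 0.10) were lower among 3 tested skeletal muscle markers. Without db/db+Aldo replicate 5 the calls were 2 higher and 2 lower among endothelial, 5 higher among macrophage, 4 lower among cardiomyocyte and 1 lower among atrial markers. Nppa was not called without sham replicate 1, 3, 5, 6 or 7 or db/db+Aldo replicate 2, 4, 6, 7 or 8, and Myh6 not without sham replicate 5. Endothelial calls were 2 higher without sham replicate 1 or 7, and 2 lower without sham replicate 4 or db/db+Aldo replicate 1. Epicardial calls were 4 without db/db+Aldo replicate 2, and 2 when db/db+Aldo replicate 4, sham replicate 2 or sham replicate 6 was left out. Skeletal muscle calls were 1 without sham replicate 1, 2, 5 or 7 or db/db+Aldo replicate 4, 6 or 8.

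**Figure D5:**
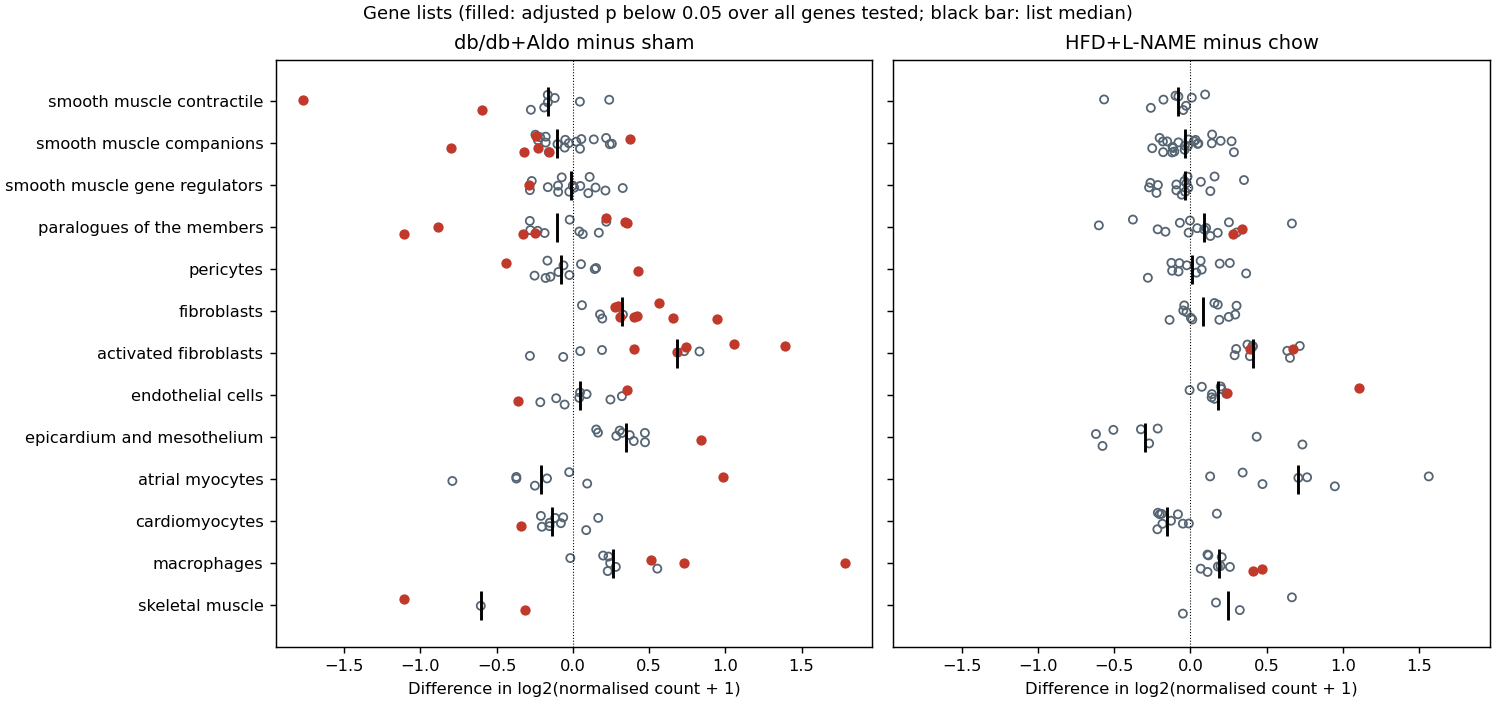
Differences in log2(normalised count + 1) (x axis) of every tested gene in 13 lists, db/db+Aldo minus sham on the left and HFD+L-NAME minus chow on the right. Filled points have an adjusted p below 0.05 over all genes tested and black bars are list medians, and fibroblast lists lie to the right of 0 in the db/db model while the contractile genes have a median of −0.17.

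In the diet model, where Acta2 did not differ beyond its error, limma called 0 of 12 pericyte and 0 of 12 fibroblast markers, with 3 and 2 at an unadjusted p below 0.05. The marker counts of this model are to be read against 2.18% of all genes called in this contrast (1.18% higher and 1.0% lower). Of the 11 tested markers of activated fibroblasts 2 were called higher, Fn1 at 0.39 ± 0.07 (SE, log2) and Postn at 0.68 ± 0.14, with sums of 3433 to 5258 in HFD+L-NAME and 3043 to 3441 in chow. Of 10 endothelial markers 2 were called higher, Cldn5 at 1.11 ± 0.09 and Tie1 at 0.24 ± 0.05. Of 10 macrophage markers 2 were called higher, Adgre1 at 0.47 ± 0.11 and Cd68 at 0.41 ± 0.10. Leaving out 1 library at a time moved these small counts. Pericyte calls were 2 higher without HFD+L-NAME replicate 2, and fibroblast calls 1 higher without chow replicate 3. Activated fibroblast calls were 0 without chow replicate 1 or 2, 1 without chow replicate 3 or 4 or HFD+L-NAME replicate 1 or 4, and 4 without HFD+L-NAME replicate 3. Endothelial calls were 3 without HFD+L-NAME replicate 2 and 1 without any other single library. Macrophage calls were 2 without HFD+L-NAME replicate 4, 1 without HFD+L-NAME replicate 2 and 0 without any other single library.

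The genes most like Acta2 were sought across the 15 libraries of the db/db model after the mean of each group and sex was removed. Of 11131 genes whose mean reached 50, the 10653 protein-coding genes with a symbol other than that of a predicted gene were ranked. Among them were Nfkbib (Pearson's r = 0.89), Rmnd5b (0.88) and Mcm8 (0.88), given as a description. None of these 3 was called in db/db+Aldo against sham. Among the members, Myl9 ranked 44th at 0.78, Lmod1 1118th at 0.50, Smtn 2370th at 0.35 and Myh11 2510th at 0.33, while Mylk had r of −0.24 and Myocd of −0.46. For Myh11 the most similar were Ercc3 (0.87), Safb2 (0.86), Snrnp70 (0.85), Ano1 (0.84) and Dcaf15 (0.83), and Ano1, a chloride channel gene, was called lower in db/db+Aldo at −0.36 ± 0.10 (SE, log2). Lmod1 ranked 8th for Myh11 at 0.82, Myl9 64th at 0.69 and Acta2 1659th.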

How the data were processed

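The deposited table of 55487 genes is corrected for sequencing run, per the file name. Between libraries of a run, its values differed by whole numbers in 100% of cases, 10.2% lay below 0 and the lowest was −2310, so each deposited value is a score, read here as a whole count less 1 shift for the gene in that run. The expected unit was normalised expression, and the fit follows the unit found. The authors' comparison tables hold a signal, the mean of scaled counts, with a log2 fold change and its SE, a Wald score and a p-value, per the file headers. Of tools, featureCounts, DESeq2 and limma are listed, and of builds GRCm38 and mm10, per the submitters' processing notes. No source used here gives the aligner, annotation, versions or use of strand.

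Size factors came from genes with a single read and shifts from the authors' deposited mean signal. In the db/db model 99.98% of 52392 genes solved to whole numbers (tolerance 0.001), with 11 taken from the opposite shift of the other run, and in the diet model 100% did. Counts divided by size factors are the normalised counts. Their log2 values after adding 1 were fitted with limma 3.58.1 in R 4.3.3 (variance trend, sex as covariate) for genes with a mean of at least 10 in the model, with Benjamini-Hochberg adjustment over all genes tested and calls at 0.05. The fit was tested on simulated data. Correlations used exact 2-sided permutation of pairings, computed with numpy 2.4.6 in Python 3.11.15, with ranks from scipy 1.17.1. Gene positions are those of GENCODE release M21 (GRCm38).

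The 10 genes and the other lists were chosen with earlier results of these data known. All 10 genes are named, with up to 3 called genes per direction from each other list by smallest p and the 5 genes most like Acta2 and Myh11. Some genes that this rule names are left out of the report. The labels do not say that samples are separate animals, so a p-value measures only their spread. Replicate numbers were not taken as pairs. Alternatives changed the pseudocount (0.5 or 5), the filter (none, or a mean of 50), the scaling, the tool (limma voom), the prior, the weights or the covariates (no sex, library names, a replicate block), or left out libraries. The 5 libraries in doubt were HFD+L-NAME replicate 3, replicates 1 and 5 of db/db+Aldo and replicates 1 and 7 of sham.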

Additional observations from a re-analysis of the deposited data

Results flagged for a closer look

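Within groups of 4 to 10 libraries, a library was singled out when its gap to the nearest other, divided by the range of the group, passed Dixon's 95% critical value. Over 40 such groups (10 genes in 4 groups) 3 libraries were singled out, where chance gives about 1 in 20. Acta2 in db/db+Aldo replicate 5 was at 2328 normalised counts, with the next highest library of the group at 1336. Myl9 in the same library was at 899, with the next at 594. Mylk in sham replicate 5 was at 737, with the next at 586. Without db/db+Aldo replicate 5 the r of Acta2 with Myl9 was 0.82.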

How the results depend on the processing

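As a description, Acta2 and Myocd were called lower in db/db+Aldo in all 31 alternatives run for that model. The log2 difference of Acta2 ran from −1.92 to −1.67 over fits that left out 1 library and from −2.02 to −1.72 over the other settings, and that of Myocd from −0.65 to −0.53 and from −0.98 to −0.54. Scaling mattered most for the other members. With no size factors, total-count scaling, or deposited values with those below 0 set to 0, the median of all genes shifted to −0.27, −0.22 and −0.27. Members called lower were then 7, 6 and 7, companions called lower 13, 12 and 13, companions called higher 0, 0 and 0, and Cnn1 was below 0 in all of these. Calls over all genes were then 5518 (424 higher), 5318 (558 higher) and 5314 (411 higher), against 2707 (1407 higher). Companions called lower were 3 without a filter, 2 under the replicate block and 8 when the libraries in doubt were left out, and from 3 to 6 when 1 library was left out. Companions called higher were 2 with array weights and from 0 to 3 when 1 library was left out. Pairs of Acta2 that passed were 0 in db/db+Aldo without the libraries in doubt, and from 0 to 4 there and 0 to 1 in sham when 1 library was left out. With the replicate block, 1849 genes were called in the db/db model and 206 in the diet model (301 without it), and Acta2 and Myocd remained the members called. Same-numbered libraries correlated at −0.22 to 0.11 in the db/db model and at 0.09 to 0.38 in the diet model, not all over 0.1, so numbers were not taken as pairs. Diet calls over all genes were 67 without the variance trend and 186 without sex. The cause of these shifts was not tested. Of the members, 0 were called in the diet model, or in any sex or interaction contrast, in every alternative run. Tagln, Actg2 and Cnn1 had means below 50 counts, which limits the precision of their values.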
